A study of Arabidopsis thaliana with 21 samples.

Results

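The change in the Arabidopsis rosette transcriptome between the fifth and the eighth hour of a standard-light day is described here. It rests on the 3 T8L libraries set against the 3 T5L libraries, 6 of the 21 libraries of the series, chosen by their labels alone. T8L plants had 8 h and T5L plants 5 h of LED light at 100 µE after the night. The high-light pair of the same hours, T8H against T5H (3 libraries each, 500 µE), and the darkness (T0D, 0 h) and 2 h (T2L) groups, also of 3 libraries each, serve as background. All plants were Col-0 rosettes aged 21 days, kept in soil at 22 °C in a cycle of 16 h light and 8 h dark. Their shoots spent the night in sealed, aerated chambers before the light came on, so this handling is common to every group. Each library holds total RNA of whole shoots, and the labels call the samples biological triplicates without giving the plants per sample. In such bulk samples, fewer cells of a type and less RNA per cell cannot be told apart.

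Leaf transcripts in Arabidopsis follow a circadian clock of interlocking repressors: CCA1 and LHY act around dawn, the pseudo-response regulators PRR9, PRR7, PRR5 and TOC1 follow one another through the day, and an evening complex of ELF3, ELF4 and LUX closes the cycle. The clock gates genes of photosynthesis, starch metabolism, cold response and defence, so that neighbouring hours of an unchanged light regime can differ in many transcripts. Sugars made in the light add a signal of their own: genes that darkness and carbon shortage turn on are held low while sugar is plentiful.

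Depth was similar in both groups, with 12631925 to 14257715 counts per T8L library and 12778575 to 16229322 per T5L library. Ribosomal RNA took 5.38% ± 2.75 of the counts in T8L and 3.15% ± 1.27 in T5L, and chloroplast genes took 48.7% ± 2.03 in T8L and 48.9% ± 1.31 in T5L (SD, n = 3 each). The high-light libraries were less even: ribosomal RNA took 19.0 to 26.0% in T8H and 0.0423 to 32.9% in T5H, where replicate 3 stood apart at 32.9%. The mesophyll marker RCA (Rubisco activase) had 1290 to 1440 CPM (counts scaled to library size) in T8L and 1960 to 2220 CPM in T5L, and markers of meristem and flower were scarce: summed over libraries, STM had 72 counts in T8L and 12 in T5L, AP1 28 and 5, AP3 15 and 6, LFY 3 and 1, WUS 0 and 2, and AG 13 and 22. STM was uneven, with 0.0765, 0.977 and 3.91 CPM in T8L, against 0.143, 0.0 and 0.616 CPM in T5L, and did not pass. Of the 4 mesophyll markers none passed edgeR's quasi-likelihood test, 1 had an unadjusted p under 0.05, and DESeq2 called 1 and voom 0. Their log2 changes of T8L over T5L were -0.64 for RCA, -0.4 for LHCB1.3, -0.17 for RBCS1A and 0.26 for CA1. Within groups, T8L replicate 1 and T5L replicate 1 each stood apart from the other two libraries for some gene lists. Over all loci tested, T8L replicate 1 was the highest T8L library for 38% and T5L replicate 1 the lowest T5L library for 37.9%, and the counts in lists below are to be read beside these shares.

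Of 19626 loci tested with edgeR's quasi-likelihood test, 4103 (20.9%) passed an adjusted p of 0.05, of which 2022 (10.3% of the loci tested) rose in T8L and 2081 (10.6%) fell. With a change of at least 2-fold added, 2430 loci (12.4%) passed. The ranges of the 3 T8L and 3 T5L libraries did not overlap for 10099 loci (51.5%), with T8L higher for 4919 (25.1%) and lower for 5180 (26.4%). The median log2 change over all loci tested was -0.02, and every list below is to be read against that median and those percentages. In what follows, levels are CPM in T8L replicates 1, 2 and 3 and then in T5L replicates 1, 2 and 3, changes are log2 of T8L over T5L ± SE, and a gene rose or fell only if its adjusted p was under 0.05. CPM is not scaled to gene length, so levels of different genes are not compared.

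The morning arm of the clock was far lower at 8 h. Of 14 morning clock genes, 11 fell, 1 rose and 2 did not pass, with a median change of -1.98. LHY, a MYB-related repressor that peaks at dawn, had 0.689, 0.451 and 0.404 CPM in T8L, against 14.9, 23.2 and 22.3 CPM in T5L. All 3 T8L libraries thus lay under 1 CPM, far below the lowest T5L library (-5.28 ± 0.33, adjusted p = 7.42e-11). Its partner CCA1 had 0.765, 0.677 and 1.28 CPM in T8L, against 10.6, 15.6 and 11.8 CPM in T5L (-3.78 ± 0.32, adjusted p = 1.3e-08). Both were lower at each later time sampled: the means at 0, 2, 5 and 8 h were 446, 241, 20.1 and 0.515 CPM for LHY and 560, 229, 12.7 and 0.907 CPM for CCA1.

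PRR9, the first pseudo-response regulator of the day, had 0.918, 1.28 and 1.89 CPM in T8L, against 23.5, 25.7 and 22.2 CPM in T5L (-4.11 ± 0.36, adjusted p = 3.69e-08). Its group means of 5.26, 96.5, 23.8 and 1.36 CPM at 0, 2, 5 and 8 h peaked at 2 h. PRR7, next in the sequence, fell less, to 36.1, 41.8 and 45.6 CPM in T8L, against 135, 114 and 114 CPM in T5L (-1.55 ± 0.21). The LNK coactivators fell together, LNK4 by 2.98, LNK2 by 2.03, LNK3 by 1.94 and LNK1 by 1.59 on the log2 scale, and so did their MYB-like partner RVE8 (-2.17 ± 0.41, adjusted p = 0.000397). The exception was the MYB-like gene RVE2, which rose to 15.8, 12 and 12.7 CPM in T8L, against 0.428, 0.82 and 1.29 CPM in T5L (3.96 ± 0.49, adjusted p = 2.98e-06). RVE1 and AT5G52660 were the 2 members that did not pass.

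The upstream sequences of 3 of these falling morning genes are shown because a motif known from light- and clock-regulated promoters, the G-box CACGTG, recurred in this list. Of the 14 morning clock genes, 10 (71.4%) had a G-box within 250 bases before to 50 bases after the annotated start, against 1675 of 18647 promoters of tested genes (8.98%) and 3 of 18 afternoon and evening clock genes. The carriers included RVE2, which rose, and RVE1, which did not pass. The letters below are the 250 bases before the start in the TAIR10.1 reference from RefSeq, read 5′ to 3′ on the gene's strand, with each G-box in capitals. The motif reads the same on both strands. A match describes these letters and is not a measured binding site.
CCA1, chr2:19245341-19245590, plus strand: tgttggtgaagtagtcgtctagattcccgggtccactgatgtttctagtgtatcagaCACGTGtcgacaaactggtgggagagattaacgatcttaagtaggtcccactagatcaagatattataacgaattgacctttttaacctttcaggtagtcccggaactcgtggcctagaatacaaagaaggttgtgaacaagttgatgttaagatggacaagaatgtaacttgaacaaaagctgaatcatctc
LHY, chr1:37872-38121, minus strand: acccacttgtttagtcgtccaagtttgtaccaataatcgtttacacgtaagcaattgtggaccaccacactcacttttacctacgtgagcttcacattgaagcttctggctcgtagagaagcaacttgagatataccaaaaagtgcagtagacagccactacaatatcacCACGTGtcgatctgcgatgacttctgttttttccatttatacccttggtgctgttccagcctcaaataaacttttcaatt
PRR9, chr2:19232357-19232606, plus strand: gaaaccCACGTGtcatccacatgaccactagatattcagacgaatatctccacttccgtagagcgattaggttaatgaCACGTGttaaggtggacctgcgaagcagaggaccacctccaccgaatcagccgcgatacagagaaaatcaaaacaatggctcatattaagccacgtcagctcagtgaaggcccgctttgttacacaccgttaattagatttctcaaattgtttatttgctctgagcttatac
The G-box began 193 bases before the start in CCA1 and 80 bases in LHY, and PRR9 had a pair, at 244 and 172 bases. Among all loci that fell the G-box share was 9.5%, and among those that rose it was 9.46%, both near the share of all promoters, while among the 177 that fell at least 4-fold it was 14.1%, and among those that rose at least 4-fold 9.07%.

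In the afternoon and evening arm more genes rose than fell, and PRR5 had the largest fall. Of 18 afternoon and evening clock genes, 8 rose, 2 fell and 8 did not pass, with a median change of 0.61. Without a filter on low counts, with voom or with only the 6 libraries in the fit, 4 fell. LUX, the DNA-binding member of the evening complex, had 48.1, 51.2 and 47.9 CPM in T8L, against 13.3, 11.5 and 12.6 CPM in T5L. The 3 libraries of each group were tightly grouped and well apart (1.97 ± 0.17, adjusted p = 1.26e-08). TOC1, which represses CCA1 and LHY in the evening, had 123, 121 and 112 CPM in T8L, against 42.1, 33.3 and 45.5 CPM in T5L (1.56 ± 0.22, adjusted p = 1.18e-05). BOA, a close relative of LUX, was nearly absent at 5 h, with 6.12, 5.64 and 5.05 CPM in T8L, against 0.214, 0.0631 and 0.0 CPM in T5L (adjusted p = 0.000435). The other members of the complex rose as well, ELF4 by 2.18 and ELF3 by 0.80.

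COR27, a night-time repressor gene induced by cold and light, had 60.9, 61.3 and 54.8 CPM in T8L, against 10.1, 16.1 and 22.0 CPM in T5L (1.87 ± 0.24, adjusted p = 3.18e-06). The histone demethylase gene JMJ30 (3.62 ± 0.50) and the pseudo-response regulator PRR3 (1.37 ± 0.31) completed the 8 that rose. PRR5, whose peak lies between those of PRR7 and TOC1, fell to 21.0, 25.4 and 26.7 CPM in T8L, against 116, 118 and 134 CPM in T5L (-2.33 ± 0.26, adjusted p = 5.43e-07). Its means of 1.99, 0.648, 122 and 24.4 CPM at 0, 2, 5 and 8 h show that 5 h was the highest of the 4 times sampled. GI, which stabilises the F-box protein ZTL, changed by -0.61 ± 0.19 (adjusted p = 0.0214), a call lost on leaving out any of 5 libraries (adjusted p of 0.0594 to 0.0784). FKF1 had 54.3, 60.2 and 63.9 CPM in T8L, against 56.9, 66.9 and 82.0 CPM in T5L, and its groups overlapped (-0.21 ± 0.24, adjusted p = 0.623).

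Upstream sequences of 2 of the rising genes are shown for the evening element AAATATCT, a motif that CCA1 and LHY are known to bind. It occurred on either strand in 12 of the 18 afternoon and evening clock promoters (66.7%), against 1136 of 18647 promoters of tested genes (6.09%) and 2 of the 14 morning clock promoters. Of the afternoon and evening carriers, TOC1, ELF4, LUX, BOA, JMJ30 and COR27 rose and PRR5 fell. The carriers FKF1, GRP7, GRP8, CAT3 and AT4G33980 did not pass. The capitals mark the element, as AAATATCT or, on the other strand, AGATATTT.
LUX, chr3:17182792-17183041, plus strand: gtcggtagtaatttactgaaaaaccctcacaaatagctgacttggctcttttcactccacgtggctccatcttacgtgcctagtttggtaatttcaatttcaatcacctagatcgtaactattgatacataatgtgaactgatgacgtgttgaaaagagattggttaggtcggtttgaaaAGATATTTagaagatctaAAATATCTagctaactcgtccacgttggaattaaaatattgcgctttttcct
TOC1, chr5:24674713-24674962, plus strand: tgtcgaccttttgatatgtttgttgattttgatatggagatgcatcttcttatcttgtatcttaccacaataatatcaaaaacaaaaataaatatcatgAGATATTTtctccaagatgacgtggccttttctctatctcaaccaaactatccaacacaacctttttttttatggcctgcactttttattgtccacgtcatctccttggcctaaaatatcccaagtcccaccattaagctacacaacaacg
LUX held 2 elements, 70 and 52 bases before the start, and TOC1 held 1 at 151 bases. Over all loci, clock genes included, the element was more frequent upstream of genes that fell: it was present in 8.29% of promoters whose genes fell and in 5.53% of those whose genes rose, and in 29 of 177 (16.4%) of those whose genes fell at least 4-fold and 6.74% of those whose genes rose at least 4-fold.

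**Figure D1:**
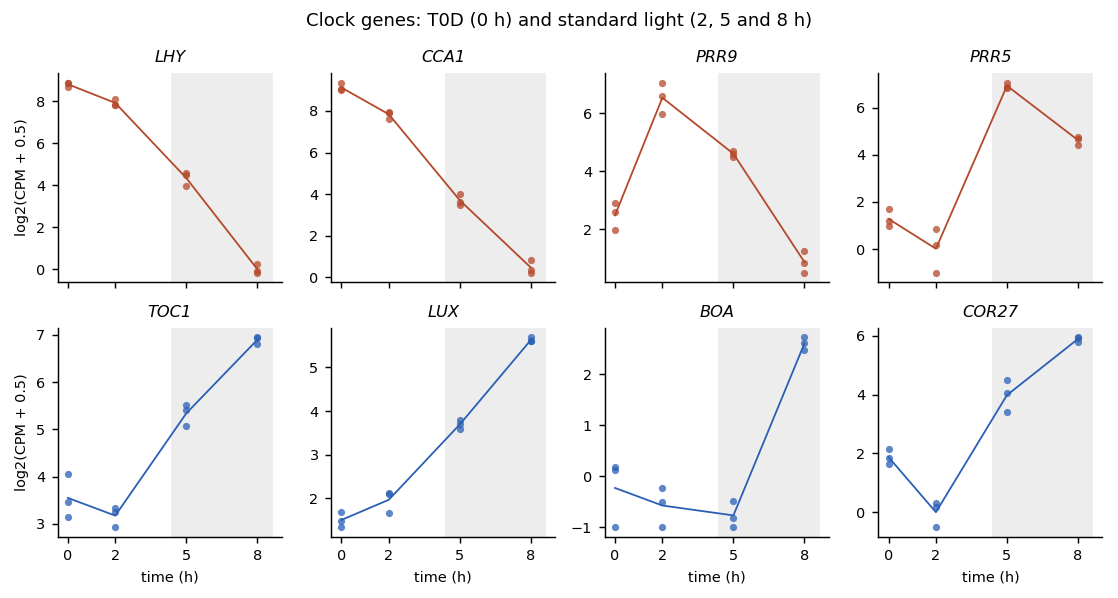
Clock transcripts in standard light, as log2(CPM + 0.5), against hours of light (0 is T0D); points are the 3 libraries of each time, lines join the means, and the grey band spans 5 to 8 h. LHY, CCA1, PRR9 and PRR5 are lower at 8 h than at 5 h in every library, and TOC1, LUX, BOA and COR27 are higher in every library.

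Transcripts downstream of the clock that time flowering and shape light responses went both ways, in places within a family. Of 12 photoperiod genes tested, 3 rose, 4 fell and 5 did not pass (median 0.38), and 2 further members were too low to test. CDF3, a Dof factor of the group that represses CO, fell to 11.9, 15.3 and 14.6 CPM in T8L, against 38, 43.7 and 38 CPM in T5L (-1.52 ± 0.21, adjusted p = 7.46e-06). COL9, a CO-like gene, rose to 86.1, 77.5 and 69.3 CPM in T8L, against 16.7, 17.8 and 27.7 CPM in T5L (1.90 ± 0.25, adjusted p = 4.67e-06). TEM1, for a repressor of FT, rose by 1.56 ± 0.23, and the CO-like genes COL1 (-1.42 ± 0.23), COL2 (-1.92 ± 0.41) and COL5 (-1.08 ± 0.23) fell. Unlike CDF3, CDF2 rose, to 3.06, 4.44 and 4.58 CPM in T8L, against 1.43, 0.378 and 1.54 CPM in T5L. CO itself stayed near the floor, at 1.07, 0.451 and 0.741 CPM in T8L and 0.285, 0.0 and 0.246 CPM in T5L, and did not pass.

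B-box zinc finger genes, many of which encode partners of the photomorphogenic factor HY5, were lower at 8 h: of 16, 9 fell, 1 rose and 6 did not pass (median -1.55). BBX16 had 1.07, 1.05 and 1.08 CPM in T8L, against 11.1, 12.7 and 11.9 CPM in T5L (-3.47 ± 0.25, adjusted p = 1e-09). BBX28, an inhibitor of HY5, had 7.19, 6.01 and 6.80 CPM in T8L, against 43.6, 46.5 and 41.2 CPM in T5L (-2.71 ± 0.18, adjusted p = 2.2e-10). Neither gene's groups came near each other. BBX18, BBX25, BBX22 and BBX24 fell by 2.92, 2.66, 2.27 and 0.84. BBX20, the single member that rose (2.66 ± 0.88, adjusted p = 0.0331), was under 2 CPM in every library and lost its call whenever 1 library was left out. T5L replicate 1 was the lowest T5L library in 11 of the 16 genes, and 9 fell without it.

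The light receptors moved less. Of 19 genes for light receptors and light signalling, 7 fell, 1 rose and 11 did not pass (median -0.24); with 1 library left out the count that fell was 3 to 5 and none rose. The blue-light receptor genes PHOT1 (-1.11 ± 0.20, adjusted p = 0.000224) and PHOT2 (-0.89 ± 0.19, adjusted p = 0.000947), and SPA1, for a partner of the ubiquitin ligase COP1 (-1.07 ± 0.20, adjusted p = 0.000333), had the smallest adjusted p. PHOT1 had 176, 129 and 132 CPM in T8L, against 336, 291 and 318 CPM in T5L. HY5 and COP1 did not pass, at changes of 0.48 and -0.12. Among 17 phytochrome-interacting factor, shade and auxin genes, PIF7 (-2.03 ± 0.24), PIF5 (-1.06 ± 0.18) and IAA3 (-1.96 ± 0.46) fell, none rose and 14 did not pass (median 0.16).

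Of 16 genes for xyloglucan endotransglucosylases and expansins, enzymes and proteins that loosen the cell wall, 3 fell, 1 rose and 12 did not pass (median -0.04). XTH31 stood out, at 4.28, 2.63 and 2.49 CPM in T8L, against 44.5, 81.0 and 54.6 CPM in T5L (-4.26 ± 0.48, adjusted p = 3.31e-06). EXPA5 and XTH4 also fell, the XTH4 call being lost with RLE scaling and on leaving out any of 5 libraries (adjusted p of 0.0539 to 0.216), and TCH4, named for its induction by touch, rose (1.77 ± 0.48, adjusted p = 0.0122). TCH4 did not pass without T5L replicate 2 or without T5L replicate 3, and then no member rose.

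In the photosynthetic apparatus, genes of the antenna, of chlorophyll synthesis and of photoprotection had more calls than those of the photosystems. Of 21 light-harvesting antenna genes, 9 fell, 1 rose and 11 did not pass (median -0.50). LHCB2.4 had 28.8, 14.4 and 15.2 CPM in T8L, against 179, 199 and 180 CPM in T5L (-3.26 ± 0.31, adjusted p = 7.05e-08). LHCB2.1 and LHCB2.2, which with it encode the mobile antenna protein, fell by 2.41 and 2.4, and LHCB1.1 by 1.99. These near-identical copies share reads, so the split among them is uncertain. LHCB4.3, for a minor antenna protein, was the exception, with 49.5, 47.6 and 38 CPM in T8L, against 14.1, 12.9 and 14.4 CPM in T5L (1.71 ± 0.30, adjusted p = 0.000213). T8L replicate 1 was the highest T8L library for all 21 antenna genes, and the 9 that fell had its values between those of the other T8L libraries and T5L.

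By contrast, only 1 of 28 nuclear photosystem and electron transport genes passed (PSAH2, -0.78 ± 0.22, adjusted p = 0.0118, median of the list -0.18), and PSAH2 did not pass without T8L replicate 2. In 24 of the 28 genes T8L replicate 1 was the highest T8L library, and 1 fell without it. Of 23 Calvin-Benson cycle genes, 2 rose, 3 fell and 18 did not pass (median 0.07). FBA1, for a chloroplast fructose-bisphosphate aldolase, had 159, 139 and 136 CPM in T8L, against 427, 462 and 443 CPM in T5L (-1.62 ± 0.30, adjusted p = 0.000269). CP12-2, for a small protein that binds phosphoribulokinase and glyceraldehyde-3-phosphate dehydrogenase in darkness, had 174, 149 and 150 CPM in T8L, against 61.2, 46.0 and 54.4 CPM in T5L (1.55 ± 0.24, adjusted p = 4.4e-05). FBA2 and SBPASE, the other two that fell, lost their calls when any 1 of the 6 libraries was left out, leaving FBA1. RBCS1A, for a Rubisco small subunit, did not pass (-0.17 ± 0.34).

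Of 17 photorespiration genes, 1 rose, 3 fell and 13 did not pass (median -0.11). CAT2, for the peroxisomal catalase of leaves, had 31.9, 31.4 and 50.4 CPM in T8L, against 151, 213 and 177 CPM in T5L (-2.25 ± 0.27, adjusted p = 1.76e-06). CAT3, a clock-controlled catalase gene of the evening, had a change of 0.71 ± 0.29 and did not pass (adjusted p = 0.0919). The glycine decarboxylase gene GLDP2 fell by 0.84. The member that rose, LrgB, lost its call on leaving out any of 5 libraries.

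Of 26 genes of chlorophyll biosynthesis and its regulators, 9 fell, 3 rose and 14 did not pass (median -0.19). HEMA1, which encodes glutamyl-tRNA reductase at the committed step, had 65.1, 42.7 and 55.4 CPM in T8L, against 255, 345 and 333 CPM in T5L (-2.51 ± 0.20, adjusted p = 5.21e-09). GUN4, the activator of magnesium chelatase, fell by 2.49, CAO, which makes chlorophyll b, by 1.92, CRD1, a cyclase subunit, by 1.71, and CHLH, a chelatase subunit, by 0.93. The transcription factor GLK2, which drives antenna and chlorophyll genes, had 10.8, 10.2 and 10.8 CPM in T8L, against 46.4, 64.7 and 65.3 CPM in T5L (-2.47 ± 0.20, adjusted p = 5.16e-09), and GLK1 fell by 0.88. Genes of the porphyrin steps between them did otherwise: HEMF1 (0.83 ± 0.16), GSA1 (0.63 ± 0.16) and HEMB1 (0.58 ± 0.19) were the 3 that rose, HEMB1 losing its call whenever 1 library was left out. In 19 of the 26 genes T8L replicate 1 was the highest T8L library, and 10 fell without it.

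Of 24 photoprotection and carotenoid genes, 9 fell, 2 rose and 13 did not pass (median -0.43). Those that fell included ZEP, for zeaxanthin epoxidase (-1.47 ± 0.19, adjusted p = 4.78e-06), PGR5, for cyclic electron flow (-1.02 ± 0.15, adjusted p = 1.91e-05), and the carotenoid cleavage gene CCD4 (-2.08 ± 0.31, adjusted p = 3.29e-05). SEP2, of the early light-induced protein family, rose to 46.4, 38.9 and 38.1 CPM in T8L, against 12.3, 15 and 12.8 CPM in T5L (1.62 ± 0.18, adjusted p = 3.87e-07). The photosystem II protein gene PSBS and the de-epoxidase gene NPQ1, both central to heat dissipation, did not pass (-0.19 and -0.39). The count that fell was 5 without T8L replicate 2, without T8L replicate 3 or without T5L replicate 3. In 18 of the 24 genes T8L replicate 1 was the highest T8L library, and without it 9 fell and 1 rose.

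Chloroplast-encoded genes gave no call in edgeR's quasi-likelihood test. None of the 42 chloroplast-encoded photosynthesis genes or of the 28 chloroplast-encoded gene expression genes passed, at medians of 0.03 and -0.05. An unadjusted p was under 0.05 for 2 of the photosynthesis genes and 0 of the gene expression genes, and DESeq2 and voom each called 1 of the 42 and 0 of the 28. The psbA transcript, for the D1 protein of photosystem II, changed by -0.07 and rbcL, for the Rubisco large subunit, by 0.04, and in both the T8L and T5L libraries overlapped. In 36 of the 42 photosynthesis genes T5L replicate 1 was the lowest T5L library (37.9% of all loci). In high light, over the same hours, 10 and 16 members of these lists rose and 1 and 0 fell, at medians of 0.69 and 1.07, beside the uneven ribosomal RNA shares given above.

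Most genes of starch synthesis were lower at 8 h. Of 17 starch synthesis genes, 12 fell, none rose and 5 did not pass (median -0.74); with 1 library left out, 10 or 11 fell. T5L replicate 1 was the lowest T5L library in 11 of the 17 genes, and 11 fell without it. GBSS1, the granule-bound synthase that makes amylose, had 1.91, 1.88 and 2.22 CPM in T8L, against 36.4, 72.2 and 58.0 CPM in T5L (-4.78 ± 0.27, adjusted p = 1.59e-11). Its means were 129, 326, 55.5 and 2.00 CPM at 0, 2, 5 and 8 h. ISA1, a debranching enzyme, had 30.2, 31.0 and 29.5 CPM in T8L, against 52.6, 62.2 and 64.7 CPM in T5L (-0.98 ± 0.15, adjusted p = 3.91e-05). APL3, a large subunit of ADP-glucose pyrophosphorylase, fell by 1.68, the branching enzymes SBE2.1 and SBE2.2 by 1.11 and 0.90, and SS2 by 1.01, while the small subunit gene APS1 did not pass (0.07 ± 0.17).

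Of 20 starch breakdown genes, 8 fell, 1 rose and 11 did not pass (median -0.22). DPE2, a cytosolic glucanotransferase that uses maltose, had 164, 143 and 159 CPM in T8L, against 357, 423 and 400 CPM in T5L (-1.34 ± 0.17, adjusted p = 3.18e-06). The glucan phosphorylase PHS2, the phosphatase SEX4, the water dikinase GWD1 and the beta-amylase BAM3 fell by 1.49, 1.32, 1.26 and 1.65. BAM9, the member that rose (1.26 ± 0.37, adjusted p = 0.0152), was under 3 CPM in every library and did not pass under voom or without T5L replicate 2. Of 14 sucrose and sugar transport genes, 5 rose, 3 fell and 6 did not pass (median 0.04), and only 1 or 2 rose with any 1 library left out. STP1, a hexose transporter, was the clearest of those that rose, at 28.8, 24.6 and 25 CPM in T8L, against 12, 7.82 and 7.27 CPM in T5L (1.53 ± 0.28, adjusted p = 0.000232).

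Most genes of the darkness and carbon starvation list were higher after 8 h of light than after 5 h. Of 31, 19 rose, 2 fell and 10 did not pass (median 1.01); with 1 library left out, 13 to 16 rose. BT2, a BTB-domain protein gene that sugar represses, had 152, 116 and 90.5 CPM in T8L, against 1.64, 0.631 and 1.66 CPM in T5L (6.50 ± 0.34, adjusted p = 8.02e-12). The means of 779, 1.4, 1.31 and 119 CPM at 0, 2, 5 and 8 h place its return between 5 and 8 h. Its relative BT5 had 12.4, 12.3 and 7.61 CPM in T8L, against 0.856, 0.252 and 0.431 CPM in T5L (4.39 ± 0.51), and a mean of 177 CPM in T0D.

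TPS9, of the class II trehalose phosphate synthase family, had 7.12, 6.47 and 9.56 CPM in T8L, against 1.43, 1.39 and 1.29 CPM in T5L (2.49 ± 0.32, adjusted p = 3e-06). TPS8, TPS11 and TPS6 rose by 1.44, 1.34 and 0.61, TPS6 losing its call in 4 of 14 alternatives, whereas TPS5 of the same family fell to 13.2, 9.40 and 9.70 CPM in T8L, against 37.7, 54.0 and 42.5 CPM in T5L (-2.05 ± 0.19, adjusted p = 5.64e-08). TPS5 had 4.15, 4.42 and 3.98 CPM in T0D, below every T5L and T8L library, so this member was not higher in darkness. The bZIP factor gene BZIP53 (1.41 ± 0.18), the dormancy-associated genes DRM1 (2.98 ± 0.45) and DRM2 (2.81 ± 0.48), and the amino acid breakdown genes GDH1 (1.68 ± 0.24) and MCCA (1.58 ± 0.29) also rose. The best known marker of the group, ASN1, went the other way (-1.33 ± 0.45, adjusted p = 0.0423), with 4.21, 4.29 and 4.18 CPM in T8L, against 4.28, 13.9 and 13.7 CPM in T5L. T5L replicate 1 thus lay at the T8L level, and the ASN1 call was lost in several alternatives.

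Of 27 nitrogen and sulphur assimilation genes, 3 rose, 9 fell and 15 did not pass (median -0.10). AMT1.1, a high-affinity ammonium transporter, averaged 115 ± 13.6 CPM in T8L, against 21.9 ± 7.35 CPM in T5L, with no overlap (2.39 ± 0.24, adjusted p = 1.43e-07). Its relative AMT1.2 fell to 0.0, 0.0752 and 0.0673 CPM in T8L, against 0.785, 2.77 and 1.42 CPM in T5L (adjusted p = 1.14e-05). Genes of sulphate assimilation made up most of those that fell: APR2, for adenosine phosphosulphate reductase, averaged 22.5 ± 1.69 CPM in T8L, against 104 ± 9.71 CPM in T5L, with no overlap (-2.21 ± 0.17, adjusted p = 3.89e-09), and APR1, APR3, APK1, APK2 and the sulphite reductase gene SIR fell by 1.07, 0.77, 1.27, 1.03 and 0.84, the APR3 call being lost on leaving out any of 4 libraries. Nitrate reductase genes NIA1 and NIA2 did not pass (0.27 and 0.02), and the asparagine synthetase gene ASN2 fell by 1.29.

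Of 30 flavonoid and phenylpropanoid genes, 10 fell, none rose and 20 did not pass (median -0.91). TT4, for chalcone synthase at the entry to the flavonoids, had 2.75, 2.63 and 5.79 CPM in T8L, against 41.2, 50.1 and 41.9 CPM in T5L (-3.56 ± 0.57, adjusted p = 0.000188). The next steps F3H and FLS1 fell by 3.2 and 2.16, the glycosyltransferase gene UGT78D1 by 1.01 and the repressor gene MYBL2 by 1.27. DFR, which leads to anthocyanins, did not pass (-1.14 ± 0.59, adjusted p = 0.207). T8L replicate 1 was the lowest T8L library in 21 of the 30 genes (38.2% of all loci).

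**Figure D2:**
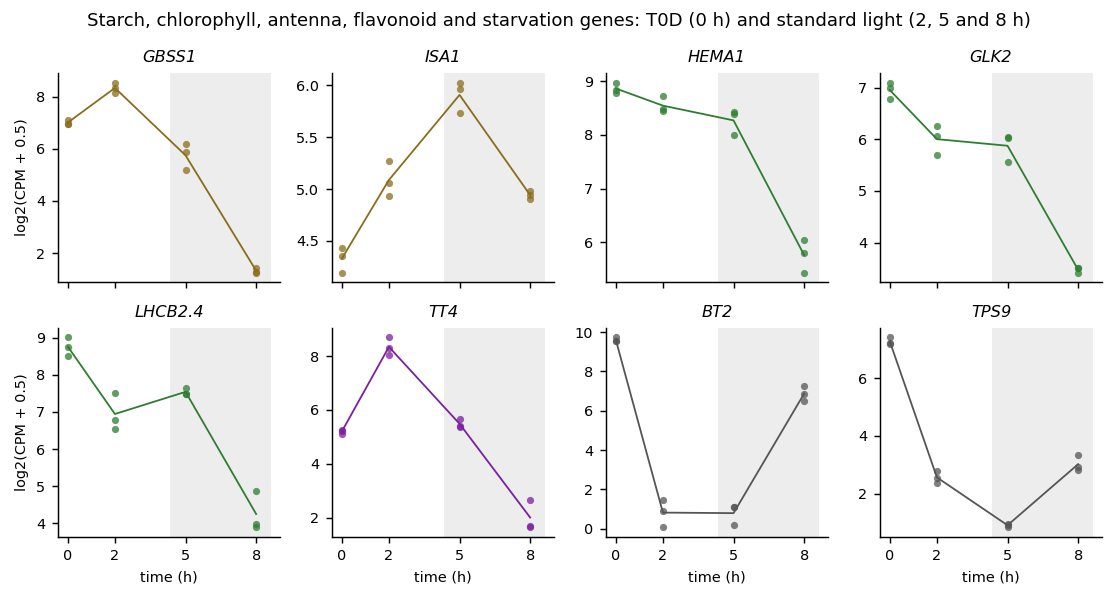
Levels of 8 metabolic and regulatory transcripts in standard light, as log2(CPM + 0.5), against hours of light (0 is T0D); points are libraries, 3 at each time, and lines join the means. GBSS1, ISA1, HEMA1, GLK2, LHCB2.4 and TT4 are lower at 8 h than at 5 h, and BT2 and TPS9, high in T0D, are higher again at 8 h.

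Many genes of ribosome production were lower at 8 h. Genes were grouped by words in their annotated product, 8 groups chosen after values had been seen. Of 293 loci annotated as ribosomal proteins, 94 (32.1%) fell and 4 rose, against 10.6% and 10.3% of all loci (median -0.54). Of 60 nucleolar or ribosomal RNA processing loci, 32 (53.3%) fell and 2 rose (median -0.79), and of 59 DEAD-box or RNA helicase loci, 23 (39.0%) fell and 1 rose (median -0.55). With 1 library left out, 40 to 66 ribosomal protein loci, 26 to 29 nucleolar loci and 19 to 22 helicase loci fell. Many ribosomal protein genes have near-identical copies whose reads cannot be assigned with certainty.

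NUC-L1, the nucleolin gene, had 147, 148 and 152 CPM in T8L, against 442, 500 and 598 CPM in T5L (-1.79 ± 0.22, adjusted p = 1.97e-06). FIB2, for the ribosomal RNA methyltransferase fibrillarin, had 7.73, 6.92 and 7.54 CPM in T8L, against 31.1, 29.6 and 36.5 CPM in T5L (-2.13 ± 0.31, adjusted p = 2.19e-05). In both, every T8L library lay far below every T5L library. AT5G27120, annotated as a NOP56-like pre-ribosomal RNA processing protein, had 24.4, 36.1 and 35.3 CPM in T8L, against 104, 127 and 134 CPM in T5L (-1.93 ± 0.26, adjusted p = 7.62e-06), and AT2G44860, of the ribosomal protein L24e family, had 23.3, 26.2 and 26.9 CPM in T8L, against 55.7, 58.3 and 67.4 CPM in T5L (-1.25, adjusted p = 5.95e-06). In high light over the same hours, 143 ribosomal protein loci fell and 10 rose (median -0.61).

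The upstream regions of AT2G44860 and AT5G27120 are shown for the motif pair long known from plant ribosomal protein promoters, the telo box AAACCCTA and the protein box ATGGGCC. On either strand, the telo box was present in 111 of 293 ribosomal protein promoters (37.9%) and 14 of 60 nucleolar ones (23.3%), against 5.59% of all promoters of tested genes. The protein box was present in 107 (36.5%) and 14 (23.3%), against 10.5% of all. Among all loci the telo box was present in 10.9% of promoters whose genes fell and 1.89% of those whose genes rose, and the protein box in 11.5% and 6.82%. Among the 177 genes that fell at least 4-fold the shares were lower than among all, 4.52% for the telo box and 3.95% for the protein box. Both motifs are in capitals.
AT2G44860, chr2:18502563-18502812, minus strand: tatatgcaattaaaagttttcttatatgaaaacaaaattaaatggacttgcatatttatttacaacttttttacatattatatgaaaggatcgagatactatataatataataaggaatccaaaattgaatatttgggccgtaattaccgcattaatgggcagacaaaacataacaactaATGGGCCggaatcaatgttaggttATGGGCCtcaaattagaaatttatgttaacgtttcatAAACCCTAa
AT5G27120, chr5:9540611-9540860, plus strand: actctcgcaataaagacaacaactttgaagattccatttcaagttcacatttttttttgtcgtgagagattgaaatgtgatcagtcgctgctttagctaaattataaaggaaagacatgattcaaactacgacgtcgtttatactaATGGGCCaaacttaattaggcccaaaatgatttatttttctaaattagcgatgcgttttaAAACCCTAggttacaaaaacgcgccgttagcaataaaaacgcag
AT2G44860 held protein boxes 70 and 46 bases before the start and a telo box at 9 bases, and AT5G27120 held a protein box at 104 and a telo box at 44 bases.

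Most genes of salicylate immunity, of the early stress factors and of the heat shock list were higher at 8 h. UGT76B1, for a glycosyltransferase that conjugates salicylate and isoleucic acid, had 9.10, 51.7 and 41.4 CPM in T8L, against 0.143, 0.315 and 0.431 CPM in T5L (6.78 ± 0.70, adjusted p = 4.09e-07). It was the largest rise among named protein-coding genes that reached 5 CPM in T8L without overlap. The same rule gave GSTU4, a glutathione transferase (4.59 ± 0.52), GRX480, a glutaredoxin (4.45 ± 0.74), OXS3 (4.84 ± 0.60) and UGT85A1 (4.03 ± 0.43). In UGT76B1, GSTU4 and UGT85A1, T8L replicate 1 was at 9.10, 15.8 and 13.2 CPM, below the other T8L libraries by several fold but above every T5L library.

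Of 12 salicylate immunity genes, 11 rose, none fell and 1 did not pass (median 2.54), the highest median of the 27 lists. ALD1, which starts pipecolate synthesis for systemic immunity, had 10.9, 22.9 and 30.4 CPM in T8L, against 0.928, 0.820 and 0.308 CPM in T5L (4.96 ± 0.68, adjusted p = 1.14e-05). ICS1, for the isochorismate synthase of salicylate production, had 45.0, 117 and 92.7 CPM in T8L, against 15.4, 18.8 and 19.6 CPM in T5L (2.24 ± 0.35, adjusted p = 6.61e-05). The factors that switch ICS1 on, SARD1 (2.42 ± 0.24) and CBP60G (2.65 ± 0.26), and the signalling genes PAD4 (1.75 ± 0.20) and EDS1 (1.74 ± 0.28) rose with it.

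EDS5, the salicylate exporter of the chloroplast, lies outside the list and had 25.6, 71.9 and 62.0 CPM in T8L, against 6.49, 7.31 and 7.02 CPM in T5L (2.93 ± 0.30, adjusted p = 1.29e-07). NIMIN1, for a protein that binds the receptor NPR1, had 39.6, 65.6 and 54.4 CPM in T8L, against 7.35, 5.49 and 4.19 CPM in T5L (3.23 ± 0.30, adjusted p = 3.83e-08). The pathogenesis-related genes PR1 (243, 452 and 480 CPM in T8L, against 20.8, 37.2 and 30.7 CPM in T5L) and PR2 (1.55 ± 0.28) rose, and PR5 did not pass (0.61 ± 0.29, adjusted p = 0.156). T8L replicate 1 was the lowest T8L library in 11 of the 12 genes. Without it 11 rose, and the changes of ALD1 and EDS5 were 5.27 and 3.27.

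Of 33 early stress transcription factor and calcium genes, 26 rose, none fell and 7 did not pass (median 2.00); with 1 library left out, 20 to 23 rose. ZAT10, a zinc finger repressor, had 21.9, 19.8 and 17.0 CPM in T8L, against 3.07, 2.71 and 1.6 CPM in T5L (2.99 ± 0.31, adjusted p = 1.46e-07). ZAT12, of the same class, had 11.1, 19.2 and 13.8 CPM in T8L, against 1.14, 1.2 and 1.05 CPM in T5L (3.69 ± 0.36, adjusted p = 7.05e-08). WRKY40 rose by 4.3 and WRKY18 by 2.51, the calmodulin-like genes CML37 and TCH3 by 4.66 and 2.67, and the ethylene response factor ERF104 by 3.17. The zinc finger gene SZF1 was even across libraries, with 64.4, 64.4 and 56.7 CPM in T8L, against 12.6, 6.31 and 6.90 CPM in T5L (2.85 ± 0.27, adjusted p = 5.68e-08). By annotation, 19 of 52 WRKY factors (36.5%) rose and none fell, a grouping that overlaps this list.

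Upstream sequences of SZF1 and WRKY33 are shown for the W-box, the site that WRKY factors bind, searched as TTGACC and TTGACT on either strand after values had been seen. TTGACT was present in 33.1% of promoters whose genes rose, in 37.9% of those whose genes rose at least 4-fold and in 17.2% of those whose genes fell, against 22.0% of all. TTGACC was present in 19.8% of those whose genes rose and 12.1% of those whose genes fell, against 14.4% of all. Another motif, the I-box GATAAG, was present in 20.7% of promoters whose genes rose and 13.1% of those whose genes fell, against 14.9% of all. Within the early stress list, 12 of 33 promoters had TTGACT and 7 had TTGACC. In the salicylate list, 4 of 12 promoters had TTGACT and 0 had TTGACC. Both forms are in capitals.
SZF1, chr3:20775970-20776219, plus strand: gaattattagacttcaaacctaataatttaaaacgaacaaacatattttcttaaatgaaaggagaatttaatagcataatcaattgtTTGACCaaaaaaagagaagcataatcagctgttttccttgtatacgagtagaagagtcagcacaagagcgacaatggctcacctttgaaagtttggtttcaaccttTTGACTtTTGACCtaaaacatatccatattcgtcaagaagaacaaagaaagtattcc
WRKY33, chr2:16107985-16108234, plus strand: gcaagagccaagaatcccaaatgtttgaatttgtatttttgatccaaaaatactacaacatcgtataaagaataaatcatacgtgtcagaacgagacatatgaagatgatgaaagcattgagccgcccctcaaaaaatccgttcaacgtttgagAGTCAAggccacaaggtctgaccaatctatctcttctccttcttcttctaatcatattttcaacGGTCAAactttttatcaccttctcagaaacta
The W-boxes lay 163, 57 and 50 bases before the start in SZF1 and 96 and 32 bases in WRKY33, which itself rose by 1.99 ± 0.25 (adjusted p = 2.65e-06).

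Of 22 heat shock factor and chaperone genes tested, 12 rose, none fell and 10 did not pass (median 1.6). Hsp70-2 had 103, 357 and 269 CPM in T8L, against 23.4, 32 and 32.3 CPM in T5L (3.05 ± 0.36, adjusted p = 3.34e-06), and HSP90.1 had 35.1, 153 and 134 CPM in T8L, against 7.71, 11.5 and 13.5 CPM in T5L (3.3 ± 0.49, adjusted p = 8.96e-05). HSP101, the disaggregase gene, HSFA2 and HSFB1 rose by 2.58, 3.41 and 1.87. T8L replicate 1 was the lowest T8L library for 18 of the 22 genes, and 12 rose without it. With any 1 library left out, 10 to 12 rose. The constitutive chaperone genes HSC70-1 and HSP90.2 did not pass (-0.08 and 0.06), nor did the small heat shock protein genes HSP17.6II, HSP17.4, HSP18.2 and AT5G37670. HSFA2 is shown with the canonical heat shock element of alternating GAA and TTC units in capitals, a motif also chosen after values had been seen and present in 7 of 22 promoters of this list (31.8%), against 0.536% of all.
HSFA2, chr2:11135374-11135623, plus strand: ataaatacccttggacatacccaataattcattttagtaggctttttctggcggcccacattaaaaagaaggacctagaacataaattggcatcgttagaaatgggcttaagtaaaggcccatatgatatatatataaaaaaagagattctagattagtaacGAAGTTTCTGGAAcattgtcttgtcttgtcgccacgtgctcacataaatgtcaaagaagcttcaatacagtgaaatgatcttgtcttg
The element began 88 bases before the start. Over all loci it was present in 0.796% of promoters whose genes rose and 0.53% of those whose genes fell. Among genes that rose at least 4-fold the share was 0.93%. Of its carriers in the list, HSP70, HSFA2, HSFA7A and HOP3 rose, and AT3G09440, HSP17.4 and DREB2A did not pass. The HSP70 and HSFA7A calls were each lost in 5 of 14 alternatives. HSFA2 had 4.21, 9.25 and 7.27 CPM in T8L, against 0.214, 0.820 and 0.863 CPM in T5L.

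Of 21 jasmonate synthesis and response genes, 7 rose, none fell and 14 did not pass (median 0.83). AOC3, for an allene oxide cyclase, had 5.59, 19.1 and 18.5 CPM in T8L, against 2.14, 1.51 and 2.22 CPM in T5L (2.88 ± 0.57, adjusted p = 0.000767). LOX4 (1.93 ± 0.48), OPR3 (1.13 ± 0.30), JAZ1 (0.98 ± 0.31) and MYC2 (0.83 ± 0.26) were among the others that rose, JAZ1 losing its call on leaving out any of 5 libraries, MYC2 any of 4 and OPR3 only T8L replicate 2. T8L replicate 1 was the lowest T8L library in 19 of the 21 genes, and 8 rose without it, while 3 rose without T8L replicate 2 and 4 without T8L replicate 3, T5L replicate 1 or T5L replicate 3.

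Several cold-response genes were lower at 8 h. Of 29 cold and abscisic acid genes tested, 10 fell, 3 rose and 16 did not pass (median -0.49). GOLS3, for a cold-induced galactinol synthase, had 2.68, 2.48 and 1.48 CPM in T8L, against 45.1, 108 and 80.8 CPM in T5L (-5.14 ± 0.66, adjusted p = 2.36e-05). CBF3, a transcription factor gene that the clock gates to the day, had 1.84, 1.80 and 1.35 CPM in T8L, against 14.7, 28.0 and 25.6 CPM in T5L (-3.77 ± 0.60, adjusted p = 0.000136). Its targets COR15A, COR47 and RD29A fell by 2.28, 1.73 and 2.62, the RD29A call being lost on leaving out any of 3 libraries. T5L replicate 1 was the lowest T5L library in 23 of the 29 genes and T8L replicate 1 the highest T8L library in 20. With 1 library left out 6 to 10 fell, 6 without T8L replicate 2, 9 without T8L replicate 1 and 10 without T5L replicate 1. The 3 that rose, RD26, HAB1 and HAI1, belong to the abscisic acid side of the list, and 0 rose without T8L replicate 2, T5L replicate 1 or T5L replicate 3, and 1 without T8L replicate 1 or T8L replicate 3. The protein kinase gene CIPK20, outside the list, had one of the steepest falls, at 1.91, 2.71 and 4.31 CPM in T8L, against 97.6, 105 and 98.9 CPM in T5L (-5.06 ± 0.46, adjusted p = 1.94e-07). LEA3, a late embryogenesis abundant gene, fell by 4.3 ± 0.77 (adjusted p = 0.000558).

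**Figure D3:**
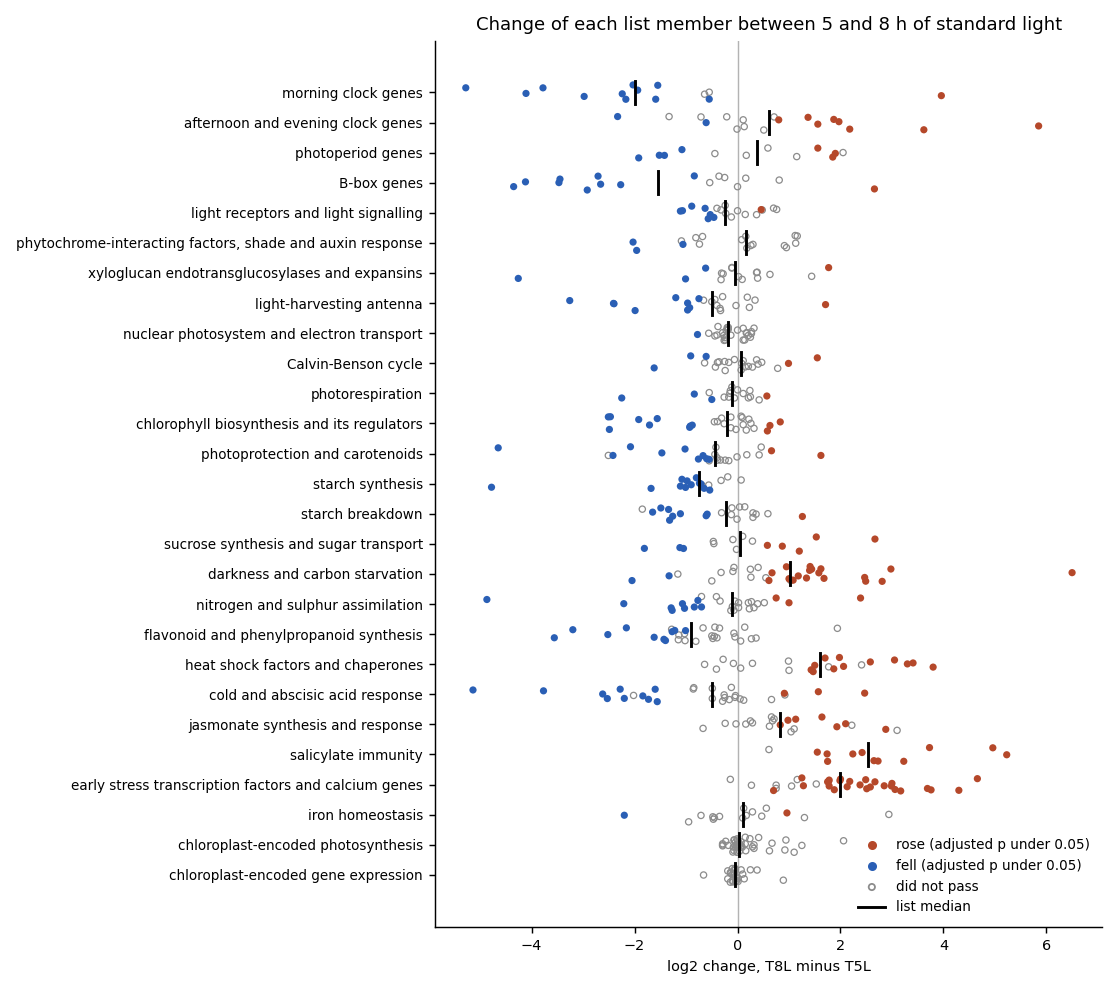
Log2 change of each tested member of the 27 gene lists between T8L and T5L; red points rose, blue points fell, open points did not pass, and black bars are list medians. Medians run from -1.98 for the morning clock genes to 2.54 for salicylate immunity, against -0.02 over all loci.

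The high-light pair of the same hours shares no library with the standard-light pair. It had 4161 loci that passed (21.2%), 1650 that rose (8.41%) and 2511 that fell (12.8%) in T8H against T5H. Of the loci that rose in standard light, 787 also rose in high light, 38.9% of the standard-light and 47.7% of the high-light list. Of those that fell, 1151 also fell in high light, 55.3% of the one and 45.8% of the other. The change had the same sign in high light for 85.2% of the loci that rose (49.0% of all loci had that sign) and for 91.9% of those that fell (50.9% of all loci). The median change of the loci that rose was 1.25 in standard light and 0.65 in high light, and that of the loci that fell was -1.05 and -0.72.

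In the clock lists, 11 morning genes fell and 1 rose in high light too (median -1.36), and among evening genes 9 rose and 3 fell (median 0.92). Of the 12 salicylate genes 4 rose and 1 fell in high light (median 0.73), and of the 33 early stress genes 11 rose and 1 fell (median 1.05). In high light 19 of 21 antenna genes (median -1.62) and 14 of 28 nuclear photosystem genes (median -0.66) fell. Clock, stress and antenna lists are described here by their counts in each light, and the difference itself was tested gene by gene.

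The difference between the steps, standard minus high light, was tested for every locus and passed for 419 (2.13%), with 301 positive (1.53%) and 118 negative (0.601%). The unadjusted p was under 0.05 for 3255 loci. This count rested on single libraries: it was 58 without T8H replicate 2 and 2429 without T5H replicate 3, the library with 32.9% ribosomal RNA. Of the 301 positive loci, 207 rose in standard light and 107 fell in high light, and of the 118 negative loci, 64 fell in standard light and 60 rose in high light. Opposite calls in the steps were found for 20 loci.

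In the salicylate list, 10 of 12 genes had a positive difference that passed, 11 without T5H replicate 3 and 4 without T8L replicate 2, T5L replicate 3, T8H replicate 1, T8H replicate 2 or T5H replicate 1. ALD1 had 1.94, 3.04 and 3.28 CPM in T8H, against 2.45, 1.06 and 0.139 CPM in T5H, and these groups overlapped, unlike in standard light (difference 3.99, adjusted p = 0.0253, a call lost in 8 alternatives). EDS5 had 10.6, 11.8 and 16.8 CPM in T8H, against 14.3, 8.98 and 10.6 CPM in T5H (difference 2.75, adjusted p = 0.00295). The EDS5 difference passed in all 20 alternatives. Among early stress genes 5 had a positive difference, 9 without T5H replicate 3 and 2 without several other libraries, led by ZAT10, with 8.24, 11.4 and 10.6 CPM in T8H, against 13.8, 8.40 and 5.43 CPM in T5H (difference 2.90, adjusted p = 0.00295). ARD3, for an enzyme of methionine salvage, had mean levels of 54.4 CPM in T8L and 6.68 CPM in T5L, and of 6.17 CPM in T8H and 6.56 CPM in T5H (difference 3.16, adjusted p = 0.00295). GILP, of the LITAF-domain family, had means of 23.8 CPM in T8L and 7.22 CPM in T5L, and of 8.97 CPM in T8H and 11.9 CPM in T5H (difference 2.13, adjusted p = 0.00295).

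**Figure D4:**
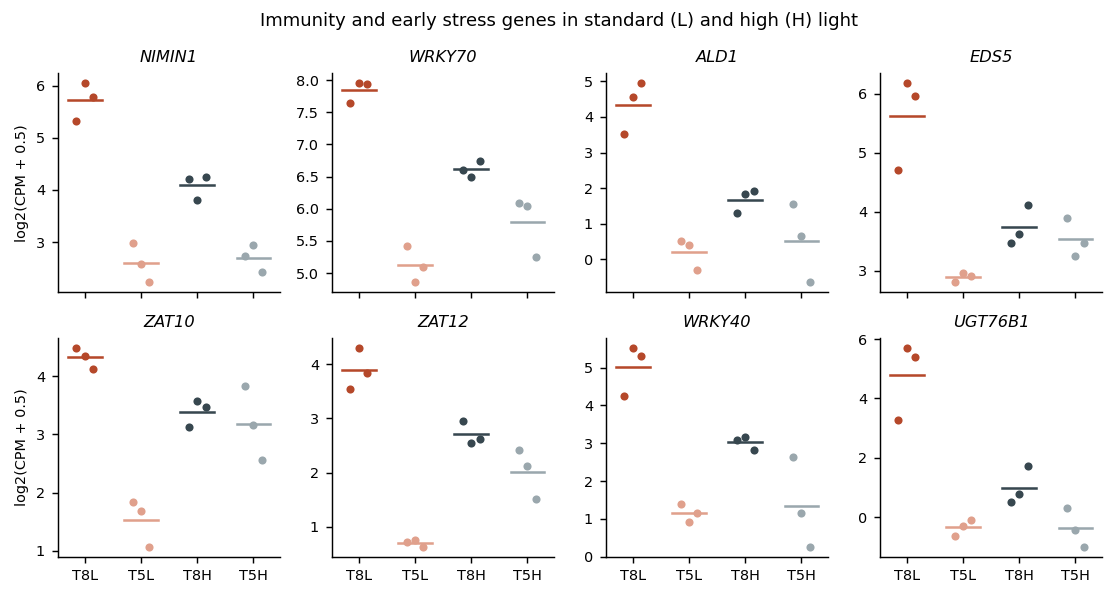
Levels of 8 defence and stress transcripts, as log2(CPM + 0.5), in T8L, T5L, T8H and T5H; points are libraries, 3 per group. T8L lies above T5L for every gene shown, with T8L replicate 1 low in several, while T8H and T5H are closer together and overlap for ALD1, EDS5 and ZAT10.

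MIR163, the locus of a microRNA that targets methyltransferase transcripts, changed in opposite directions. It had 4.97, 8.95 and 7.74 CPM in T8L, against 2.50, 2.33 and 2.28 CPM in T5L (1.61 ± 0.33, adjusted p = 0.000709), and averaged 6.16 ± 0.941 CPM in T8H, against 14.4 ± 2.86 CPM in T5H, with no overlap. The high-light libraries were apart in the other direction (-1.23 ± 0.31, adjusted p = 0.00534; difference 2.84, adjusted p = 0.00347). The counts are of reads over the precursor locus in total RNA, not of the mature microRNA. XTH31 was the strongest of the negative differences among the genes named here (-3.08, adjusted p = 0.0172): its fall in high light was smaller, to 38.9, 40.4 and 28.1 CPM in T8H, against 111, 84.5 and 47.2 CPM in T5H.

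**Figure D5:**
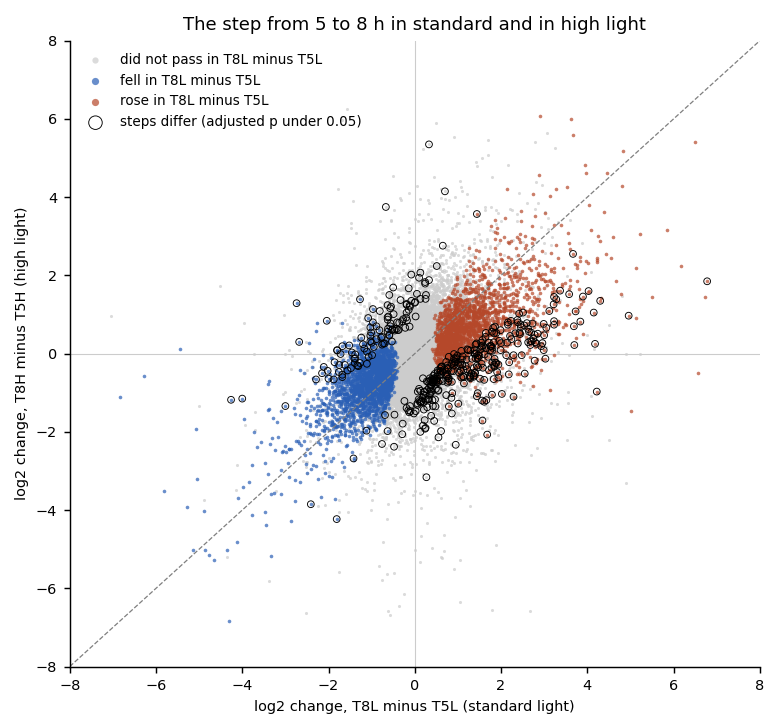
Log2 change of every tested locus between T8L and T5L (x axis) and between T8H and T5H (y axis); circled points are loci whose steps differed at an adjusted p under 0.05. Most loci with a large change lie on the same side of zero on both axes, and 301 of the 419 circled loci have the higher value in standard light.

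The step before it, T5L against T2L, shares the T5L libraries with the step from 5 to 8 h, so the values are only set side by side. At 2, 5 and 8 h the means were 71.1, 101 and 2.98 CPM for CIPK20, 96.5, 23.8 and 1.36 CPM for PRR9 and 7.86, 2.60 and 42.7 CPM for UGT85A1. In T0D, UGT85A1 had 31.8, 43.7 and 44.3 CPM. With T0D added, the means at 0, 2, 5 and 8 h were 125, 3.42, 0.579 and 17.0 CPM for OXS3 and 10.4, 7.16, 2.37 and 7.22 CPM for MIR163, which places the lowest of the 4 sampled times at 5 h for both.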

How the data were processed

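The authors deposited raw read counts per gene, 1 file per library, made with featureCounts per the file headers, in reverse-stranded mode over 1 span per gene, so intronic reads count. The submitters' processing notes also name edgeR, SAMtools 1.3.1, Subread 1.5.0, Trim Galore 0.4.4 and FastQC 0.11.7. Per the labels' protocols, libraries came from ribosomal-RNA-depleted total RNA, with strand kept, sequenced as single 75 bp reads on 1 NextSeq500 lane. Genome build and aligner settings are, for these files, not given in the sources used here. Neither the authors' log2 RPKM table nor their table of comparisons was used.

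Symbols, products and promoters came from the TAIR10.1 annotation: 32909 of 33341 loci matched by locus tag, 123 organelle loci by position and 309 not at all. The counts were scaled by TMM and compared in edgeR 4.0.16 by its quasi-likelihood test (R 4.3.3, robust, all 21 libraries, 1 coefficient per group). The filter filterByExpr kept 19626 loci, with Benjamini-Hochberg adjustment over them. CPM used TMM-scaled library sizes, where 3 counts equal 0.185 to 0.230 CPM in the 6 libraries. Replicates differed by more than sampling noise (chi-square per degree of freedom 9.79 to 26.5), so each counted as 1 sample, and since the plants per sample are unknown, p-values reflect sample-to-sample spread, which may be technical. Counts were also simulated for all 21 libraries, with T8L set to the T5L levels except at 66 or 67 loci for each fold. There the test recovered 77.3% of 4-fold, 31.3% of 2-fold and 2.99% of 1.5-fold changes over 19295 loci. Only 75 loci passed in that simulation, against 4103 in the data, so these rates do not give the recovery in the real step. Alternatives were DESeq2 1.42.0, limma 3.58.1 voom, other scaling, filters and covariates, and leaving out each library.

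Members and lists were chosen with earlier results of these data known, and the product-name groups, W-boxes and heat shock element after values were seen. Genes named were the 12 largest rises and falls at 5 CPM or more without overlap, up to 4 called genes per list and direction by adjusted p (or the 2 of highest CPM), 14 clock and chloroplast genes in any case, and the 5 symbols of smallest adjusted p in the difference of the steps. Others in the text illustrate their lists and were named after their values were seen.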

Additional observations from a re-analysis of the deposited data

Results flagged for a closer look

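For 419 loci the change from 5 to 8 h differed between standard and high light in the test of the difference itself (edgeR's quasi-likelihood test, Benjamini-Hochberg adjusted). Differences below are log2 of the standard-light step minus the high-light step. Among the named defence and stress genes the difference was 4.93 for UGT76B1, 3.99 for ALD1, 2.99 for ZAT12, 2.95 for WRKY40, 2.90 for ZAT10, 2.75 for EDS5, 2.43 for UGT85A1, 2.39 for Hsp70-2, 2.13 for GILP and 2.09 for CBP60G. It was 1.95 for WRKY70, 1.78 for NIMIN1, 1.46 for WRKY18 and 1.4 for SARD1, so the change of each was higher in standard light. GILP was lower in T8H than in T5H. Among metabolic and other genes it was 3.16 for ARD3, 2.84 for the MIR163 locus, 2.43 for UGT85A1, 2.42 for the sugar phosphate transporter gene GPT2, 1.59 for AMT1.1, 1.44 for LHCB2.1, 1.41 for TEM1, 1.36 for CP12-2 and 1.26 for COL1. Of these, GPT2, LHCB2.1 and COL1 fell in standard light, and for each every T8H library also lay below every T5H library. The difference was negative for XTH31 (-3.08) and for the adenosine phosphosulphate kinase gene APK1 (-1.03). Ribosomal RNA took 19.0 to 26.0% of the counts in T8H and 0.0423 to 32.9% in T5H, with replicate 3 of T5H highest, and its part in these differences was not tested beyond the covariate fit, which left 166 loci.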

How the results depend on the processing

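When the fit held only the 6 libraries, 7724 loci passed in T8L against T5L, 3844 higher and 3880 lower, and with a 2-fold minimum 2430 passed. In the 6-library fit 14 antenna, 16 photoprotection, 7 Calvin-Benson and 5 nuclear photosystem genes fell. Leaving out 1 library gave 2790 to 3378 called loci, 1371 to 1695 higher and 1365 to 1723 lower, the fewest lower without T8L replicate 2. The difference of the steps was far less steady: 1121 loci without a filter, 954 with DESeq2, 1061 with voom, 166 with ribosomal RNA share as a covariate, and 58 to 2429 on leaving out 1 library (58 without T8H replicate 2, 2429 without T5H replicate 3); the cause was not tested. Of 147 named genes 142 passed, 115 of them in every alternative. Equal replicate numbers did not pair the samples: correlations over loci were 0.0026 to 0.0178 for equal numbers and -0.0197 to 0.0106 for unequal ones. With a replicate block 4014 loci passed in the step and 324 in the difference. Nothing reversed direction. The 3 libraries per group limit precision, and genes under a few CPM are the least certain.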

Other observations

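Other groups defined by annotated product, chosen after values were seen, are given here against the 10.3% of all loci that rose and the 10.6% that fell. Of 44 glutathione transferase loci, 12 (27.3%) rose, 3 (6.82%) fell and 29 did not pass (median 0.24), and with 1 library left out 8 to 11 rose and 1 to 3 fell. GSTF6 had 302, 482 and 454 CPM in T8L, against 77.0, 73.0 and 91.3 CPM in T5L (2.36 ± 0.26, adjusted p = 4.92e-07), while ERD9 fell to 3.44, 3.08 and 4.58 CPM in T8L, against 24.8, 43.0 and 27.2 CPM in T5L (-3.09 ± 0.31, adjusted p = 1.29e-07). Of 293 loci with leucine-rich repeats in the product name, 63 (21.5%) rose and 29 (9.9%) fell (median 0.16), and with 1 library left out 39 to 65 rose and 11 to 21 fell. The helper immune receptor gene ADR1 had 23.3, 29.5 and 33.2 CPM in T8L, against 10.6, 9.46 and 11.1 CPM in T5L (1.47 ± 0.20). Of 34 proteasome loci, 4 (11.8%) rose, near the share of all loci, and none fell (median 0.28). PBD2, a core subunit gene, was among those that rose (0.96 ± 0.18), and with 1 library left out 1 to 5 rose. Of 49 tRNA ligase loci, 10 (20.4%) fell and 3 rose (median -0.32), but 4 to 6 fell with any 1 library left out and 4 to 26 in the other alternatives.

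Of 16 iron homeostasis genes, 1 rose (BTS, 0.96 ± 0.23, a ubiquitin ligase gene of iron sensing) and 1 fell (NAS1, -2.20 ± 0.48, for nicotianamine synthase). Noncoding loci gave few calls: 1 rose and 1 fell among 18 microRNA loci, and 4 rose and 3 fell among 381 long noncoding loci. None of the 120 small nucleolar RNA loci passed edgeR's quasi-likelihood test (2 at an unadjusted p under 0.05, 0 by DESeq2 and 0 by voom), nor did any of the 86 mitochondrial loci (3 at an unadjusted p under 0.05, 2 by DESeq2 and 1 by voom). Among the markers of other tissues, MYB60 of guard cells fell (-1.15 ± 0.35, adjusted p = 0.0201) and KN of dividing cells rose (0.77 ± 0.26, adjusted p = 0.0371). The MYB60 call was lost on leaving out any of 5 libraries and the KN call any of 4. The other guard cell markers FAMA, KAT1 and AT1G22690 had changes of 0.07, -0.56 and -0.51 and did not pass. The other dividing-cell markers CYCB1.1, CDKB1.1 and CDKB2.1 had changes of 0.79, 0.91 and 0.93 and did not pass. Of the root markers, PYK10 had 740 counts in T8L and 619 in T5L (0.43, adjusted p = 0.576), NRT2.1 had 12 and 22, PHT1.1 had 1 and 0, and IRT1 had 3 and 3.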
